A study of Mus musculus with 28 samples.

Results

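Transcription-coupled repair removes DNA lesions that stop RNA polymerase II, and the 9 genes described here encode factors of that pathway: Ercc6, Ercc8, Uvssa, Xab2, Xpa, Ercc2, Ercc3, Ercc5 and Nedd4. They were taken by name, and all 9 were found among the 24984 genes of each table. Bru-seq gave the nascent RNA of these genes in mouse embryonic stem cells (mESCs), wild type (WT) or EloA null, the latter lacking Elongin A, a subunit of an elongation factor and of a ubiquitin ligase for the polymerase. Bru-seq labels new RNA: 5-bromouridine (BrU) is added to the cells for some minutes, and RNA that contains it is captured with an antibody and sequenced. In steady state the cells received 2 mM BrU for 10 min and no FP. For recovery they were first held for 60 min in 1 µM flavopiridol (FP), which blocks the release of paused polymerase, and BrU was then given for 5 or 10 min in medium without the drug. Each genotype has 2 libraries in each of the 3 conditions, 12 in all, from cells grown with LIF and the kinase inhibitors PD0325901 and CHIR99021 and depleted of feeder fibroblasts. The labels name the line CCE28 in one place and CJ7 in another, and the number of null clones and the part of the gene that was deleted are not given in the sources used here.

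When the polymerase stops at a lesion, the ATPase encoded by Ercc6 (CSB) binds it and helps recruit the product of Ercc8 (CSA), the substrate receptor of a cullin ubiquitin ligase. Uvssa then brings in TFIIH, the general factor that holds the helicases encoded by Ercc2 (XPD) and Ercc3 (XPB). Xpa checks the opened DNA, Xab2 binds Xpa and is also a splicing factor, and Ercc5 (XPG) is one of the nucleases that cut out the damaged strand. Nedd4 is a ubiquitin ligase that marks the stalled polymerase, and the Elongin ligase with Cul5 can extend that mark so that the polymerase is degraded. In cells that were not irradiated, as here, the genes are measured only for their own transcription, not for repair.

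Library sizes, worked out from the steps between RPKM values, ran from 9857531 to 28547356 reads. The authors normalized with edgeR, and whether these sizes include a normalization factor cannot be told from the steps. Each of the 9 genes was measured with between 33 reads (Xpa at 5 min) and 23290 reads (Nedd4 in steady state). RPKM corrects reads for length and library size, and for these genes the length that gave whole reads was close to that of the introns, so levels can be compared between genes per length of intron. Eloa itself, the targeted gene, had 1.18 and 1.16 RPKM in WT in steady state, against 1.96 and 1.89 RPKM for EloA null by label, and its mean was also higher in the latter at 5 min (1.97-fold) and at 10 min (1.58-fold). Nascent Eloa was therefore not lower in the libraries labelled EloA null. As the deleted part is not known, these reads do not show which group lacks Elongin A, so directions below are by label. One steady-state library (replicate 1) is titled EloA null while its genotype field says wild type. Its Eloa level, 1.96 RPKM, was near the 1.89 RPKM of the other steady-state library titled EloA null and above both WT libraries. Which of its 2 labels is right was not tested. Steady-state differences of the 9 genes are therefore also given without it. Recovery levels relative to steady state in EloA null, and the comparison of genotype differences between conditions, include it. All 8 stem cell markers (Pou5f1, Sox2, Nanog, Esrrb, Zfp42, Klf4, Tfcp2l1, Dppa5a) had a mean above 0.5 RPKM in every condition. Of 8 feeder fibroblast markers 1 did so in steady state and 2 in recovery, with Thy1 at or under 0.05 RPKM throughout. Their summed level was lower in the libraries labelled EloA null, at 1.66 to 1.99 RPKM against 2.09 to 2.36 RPKM in steady state, 1.44 to 1.85 against 2.48 to 2.75 at 5 min and 2.44 to 3.11 against 3.42 to 4.42 at 10 min, and the part of this in the results was not tested.

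In WT cells in steady state, Nedd4 was the most transcribed of the 9 genes, at 10.1 ± 0.0921 RPKM (SD, n = 2), above 95.0% of the 10796 genes with a mean over 0.5 RPKM. Xab2 followed at 6.02 ± 0.668 RPKM and the TFIIH gene Ercc3 at 3.33 ± 0.0782 RPKM. The median of expressed genes was 1.91 RPKM, so these 3 genes lay well into the upper part of the range. The 2 genes that recognise the stalled polymerase stood at one level: Ercc8 had 2.29 ± 0.125 RPKM and Ercc6 2.29 ± 0.0399 RPKM, and their libraries overlapped. Ercc5 had 1.68 ± 0.0299 RPKM and Ercc2, the other TFIIH helicase, 1.40 ± 0.263 RPKM. The lowest levels belonged to Xpa, with 0.861 ± 0.0607 RPKM, and Uvssa, with 0.500 ± 0.117 RPKM. Between Nedd4 and Uvssa, neighbours in this order other than Ercc8 and Ercc6 did not overlap in their 2 libraries. In the libraries labelled EloA null the order was the same at the top (Nedd4, Xab2, Ercc3) and at the bottom (Xpa, Uvssa), Ercc6 stood above Ercc8, and Ercc2 and Ercc5 overlapped. The subunits and partners of one pathway were thus transcribed over a wide range, with Ercc3 and Ercc2, which sit in the same complex, on either side of the median.

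**Figure D1:**
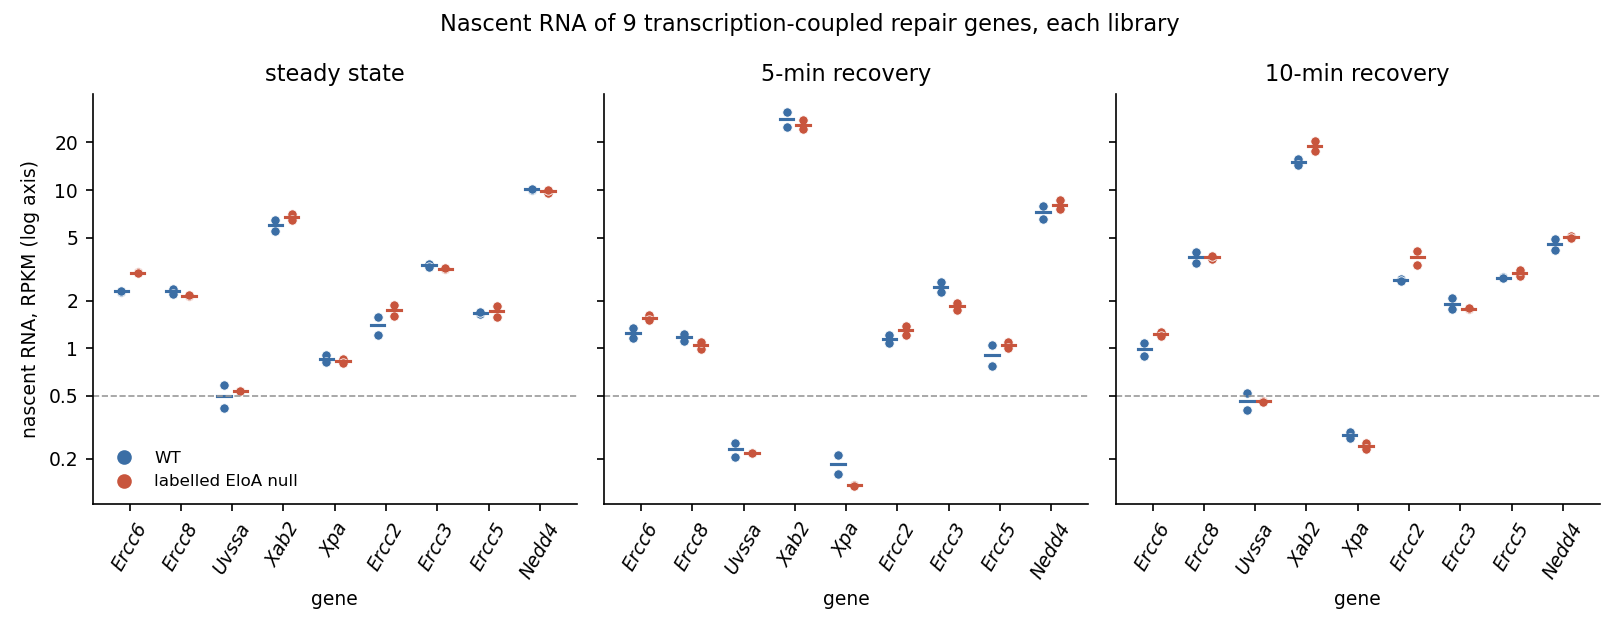
Nascent RNA in RPKM (log axis) of the 9 genes in steady state and after 5 and 10 min of recovery from FP. Points are single libraries, bars the mean of 2 libraries, blue WT and red labelled EloA null, and the dashed line marks 0.5 RPKM; Xab2 stands highest in both recovery conditions, and Uvssa and Xpa have means under the line there.

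After FP was washed out, the 9 genes differed far more from one another than the genotypes did. Each library was divided by the mean steady-state RPKM of its genotype. The scaling between the 3 tables is not given, and BrU was present for 5 min in one of them, so these ratios are a description of how a gene's share of the signal differed and have no test. The ratios differed with gene length over all expressed genes, so each gene is set beside expressed genes of similar length.

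At 5 min, Xab2 was the only one of the 9 genes above its steady-state level in WT, where 28.2% of expressed genes were. Its RPKM was 31.1 and 25.1 in WT, against 27.6 and 24.3 for EloA null, with no separation of the genotypes. This was 5.16 and 4.16 times the steady-state level in WT and 4.07 and 3.59 times in the libraries labelled EloA null. Xab2 spans 11.2 kb, and the median ratio of the 1129 expressed genes of 10 to 15 kb was 0.719 in WT, with 99.8% of them below Xab2. Ercc2, the other gene in this length range at 13.7 kb, had ratios of 0.866 and 0.774 in WT, close to that median. Ercc2 had only 122 to 245 reads per library at 5 min. It overlaps another gene, Klc3, to which some of these reads may belong. The shortest of the 9 genes, Xab2, therefore stood apart from the values of a gene of nearly its own length.

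Xpa lay at the other end. Its level at 5 min was 0.212 and 0.161 RPKM in WT and 0.137 and 0.135 RPKM in the libraries labelled EloA null, on 33 to 47 reads per library. That is 0.246 and 0.187 times its steady-state level in WT, while the 2300 expressed genes of 15 to 30 kb had a median of 0.527, and 10.96% of them lay below Xpa. The genotypes did not overlap, but at these few reads the values are imprecise. Ercc3, at 29.8 kb in the same length range, kept more of its signal, with ratios of 0.784 and 0.677 in WT. Among genes of 30 to 60 kb, which had a median of 0.453, Ercc8 (0.540 and 0.481) and Ercc5 (0.622 and 0.462) lay a little above it, and the libraries of Uvssa (0.507 and 0.413) lay on both sides. Of the longest genes, set beside a median of 0.558 for 60 to 100 kb, Ercc6 lay on both sides of it with 0.583 and 0.504, and Nedd4 lay above it with 0.651 and 0.783.

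At 10 min the 9 genes divided. Ercc8, Xab2, Ercc2 and Ercc5 were above their steady-state level in both WT libraries, 4 of 9 where 51.3% of expressed genes had a mean ratio over 1. Ercc8 stood at 1.78 and 1.51 times steady state in WT and 1.72 and 1.78 times in the libraries labelled EloA null. Ercc5 was much the same, at 1.67 and 1.65 times in WT and 1.66 and 1.82 times in the others. Both exceeded the median of 0.858 for WT genes of 30 to 60 kb, with 87.9% and 88.4% of those genes below them, whereas Uvssa, of the same length as Ercc8 (42.4 and 42.5 kb), had ratios of 1.05 and 0.812 and lay near that median. Ercc5, at 34.3 kb, lies near the lower limit of the range of 30 to 60 kb. Its WT ratios were within the interquartile range of WT genes of 15 to 30 kb, 0.868 to 2.12. Ercc2 reached 1.95 and 1.91 times in WT. Xab2 was lower than at 5 min, at 2.61 and 2.39 times, and no longer stood apart from genes of its length, of which 73.5% were below it.

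Xpa and Ercc3 stayed low at 10 min. Xpa had ratios of 0.343 and 0.314 in WT and 0.307 and 0.280 in the libraries labelled EloA null, where genes of 15 to 30 kb had medians of 1.44 and 1.41, and 3.70% of those genes lay below it in WT. Ercc3 had ratios of 0.621 and 0.529 in WT, with 11.7% of the same genes below it. At 29.8 kb it lies at the edge of this length range. The WT genes of 30 to 60 kb had a median of 0.858 and a lower quartile of 0.558, nearer to Ercc3. The 2 longest genes were also under their steady-state level, Ercc6 at 0.471 and 0.393 and Nedd4 at 0.413 and 0.484, in a length range with a median of 0.582. Between 5 and 10 min the mean RPKM of Ercc8 was 3.23-fold higher in WT, that of Ercc5 3.06-fold, Ercc2 2.35-fold, Uvssa 2.02-fold and Xpa 1.52-fold. It was lower at 10 min for Ercc6 (0.795 times), Ercc3 (0.787 times), Nedd4 (0.626 times) and Xab2 (0.536 times). In the libraries labelled EloA null the same 5 genes were higher at 10 min and Ercc6, Nedd4 and Xab2 lower, while Ercc3 had a ratio of 0.964 and its libraries overlapped. These ratios depend on how the tables are scaled: with each table divided by its median ratio of expressed genes under 10 kb, a choice made after seeing the data, the ratio of Xpa was 0.983 in WT and 0.903 in the others, and those of Ercc8 were 2.09 and 1.82. The TFIIH helicases Ercc2 and Ercc3 lay on opposite sides of 1 in WT under both scalings (1.52 and 0.509 under the second), as did Ercc8 and Ercc6.

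**Figure D2:**
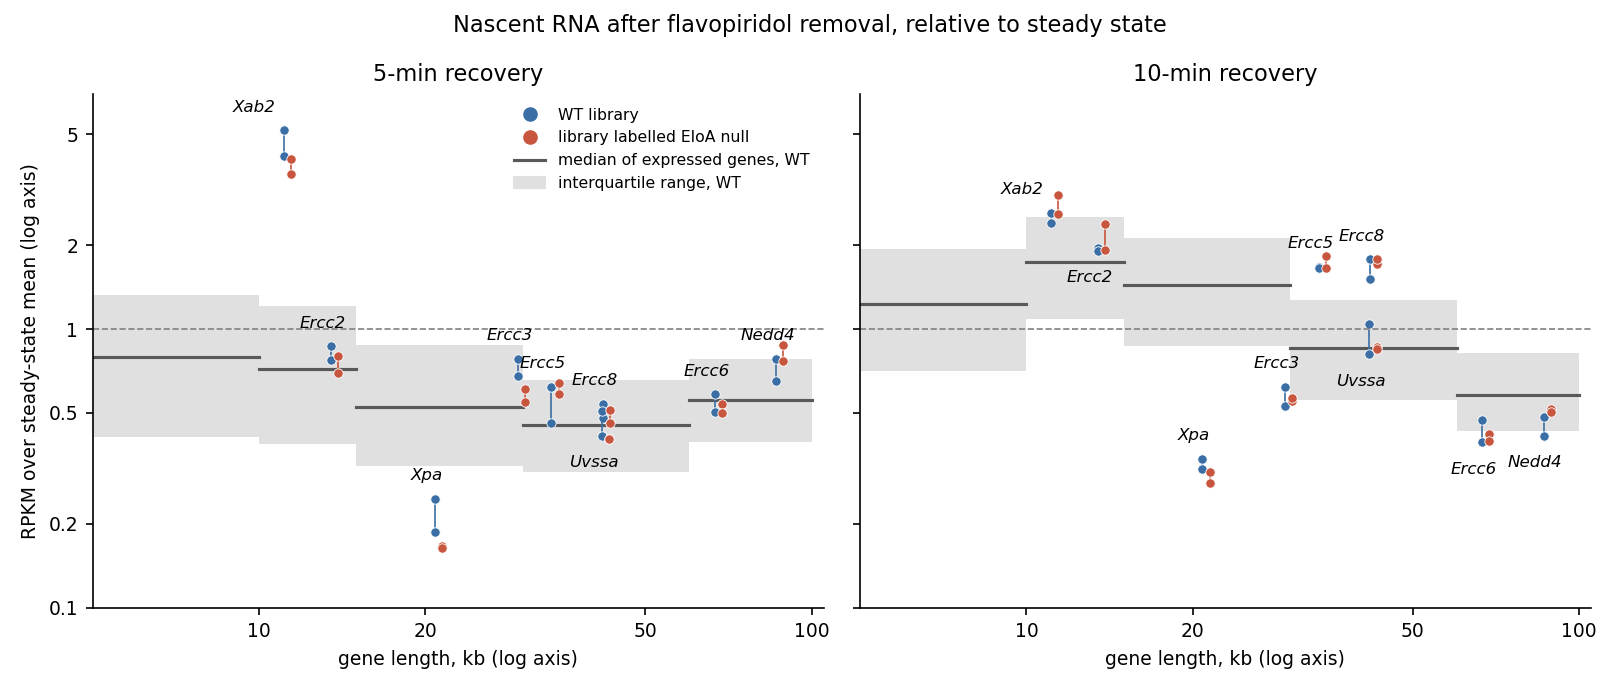
Level of each gene after 5 min (left) and 10 min (right) of recovery, as RPKM over the steady-state mean of its genotype (log axis), against gene length in kb (log axis). Points are single libraries, blue WT and red labelled EloA null, joined within a genotype, with the median (line) and interquartile range (grey) of WT expressed genes in each length range, genes under 10 kb being drawn from 5 kb; Xab2 lies far above its range at 5 min and Xpa below its range at both times.

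The sequences before the starts of 4 genes are shown as a description: Xab2 and Ercc2, of similar length with unlike recovery at 5 min, Xpa, the gene with the lowest ratios, and Ercc8, which was above steady state at 10 min. Each is the 200 bases before the first annotated base of the gene, from RefSeq on GRCm38.p6, 5′ to 3′ on the gene's strand. Capitals mark matches, on either strand, to CCAAT (the CCAAT box), GGGCGG (the GC box) and CCGGAA (an ETS core), and TATAAA was searched as well. Matches were allowed to overlap.
Xab2: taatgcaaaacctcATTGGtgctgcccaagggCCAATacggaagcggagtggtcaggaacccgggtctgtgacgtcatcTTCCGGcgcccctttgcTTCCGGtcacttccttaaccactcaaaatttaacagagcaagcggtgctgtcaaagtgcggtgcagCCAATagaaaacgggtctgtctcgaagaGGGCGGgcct
Ercc2: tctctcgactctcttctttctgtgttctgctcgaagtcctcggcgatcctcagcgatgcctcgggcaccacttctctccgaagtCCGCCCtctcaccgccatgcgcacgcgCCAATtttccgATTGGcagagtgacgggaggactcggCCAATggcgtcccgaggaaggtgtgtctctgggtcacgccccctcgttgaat
Xpa: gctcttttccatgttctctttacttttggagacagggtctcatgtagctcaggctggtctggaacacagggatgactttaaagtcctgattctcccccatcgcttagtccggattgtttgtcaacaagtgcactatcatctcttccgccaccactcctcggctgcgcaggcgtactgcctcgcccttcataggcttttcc
Ercc8: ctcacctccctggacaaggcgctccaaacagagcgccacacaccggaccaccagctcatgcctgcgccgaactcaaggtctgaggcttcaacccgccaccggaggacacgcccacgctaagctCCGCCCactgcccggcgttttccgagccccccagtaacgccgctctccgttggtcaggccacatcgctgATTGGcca

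The Xab2 window lies at chr8:3621335-3621534 (minus strand), that of Ercc2 at chr7:19381817-19382016 (plus), of Xpa at chr4:46196345-46196544 (minus) and of Ercc8 at chr13:108158511-108158710 (plus). Xab2 held 3 CCAAT, 1 GGGCGG and 2 CCGGAA matches, Ercc2 held 3 CCAAT and 1 GGGCGG, and Ercc8 held 1 of each of these 2 motifs. Xpa held none of the 4 motifs, which says only that these letters are not in this window. Of 32851 RefSeq promoter windows of the same length, 29.3% held CCAAT, 31.0% GGGCGG, 10.7% CCGGAA and 10.0% TATAAA. The share of windows with several matches to a motif was not counted. CpG dinucleotides numbered 12 before Xab2, 19 before Ercc2, 7 before Xpa and 17 before Ercc8, against a median of 5 for all windows. No value here ties a motif to the recovery of a gene.

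The question of the genotype comparison is whether transcription of these genes differs without Elongin A. In steady state 0 of the 9 genes passed an adjusted p of 0.05 in limma, and 0% of the 11347 genes tested did, with 2083 of them and 1 of the 9 (Ercc6) at an unadjusted p under 0.05. Both libraries labelled EloA null lay above both WT libraries for 2 of 9 genes, against 32.0% of all genes tested, and below them for 2 of 9, against 21.4%. None of the 9 was past 1.5-fold, a limit that 9.31% of genes passed. The median log2 difference of the 9 genes was 0.02, beside 0.03 for all genes tested. These shares of the 9 genes lay near or under those of all genes. Without the library in doubt, 2 of 9 lay above both WT libraries and 4 of 9 (Ercc8, Xpa, Ercc3 and Ercc5) below, against 43.4% and 36.5% of all genes.

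Ercc6 showed the largest difference of the 9 in steady state. Its WT libraries gave 2.26 and 2.32 RPKM, and those labelled EloA null 3.05 and 2.97 RPKM. The groups were clearly apart, by 1.32-fold, with a log2 fold change of 0.38 ± 0.08 (SE) and an adjusted p of 0.138. Without the library with the conflicting genotype label, the log2 fold change was 0.36 and the adjusted p 0.267.

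This difference has to be read beside the chromosome on which Ercc6 lies. The gene spans chr14:32513291-32580990 (GRCm38, plus strand), and the 416 tested genes of chromosome 14 had a median log2 fold change of 0.50 in steady state. Of these, 92.8% had both libraries labelled EloA null above both WT libraries, against 32.0% of all genes, and without the library in doubt the median was 0.47. Ercc6 lay 0.12 below the chromosome's median on the log2 scale, above only 30.5% of its genes. The 6 nearest tested genes, 3 on each side, were all higher in both libraries labelled EloA null, with log2 fold changes from 0.18 to 1.21. At 5 min the chromosome 14 median was 0.46 and Ercc6 stood 0.15 below it, and at 10 min the median was 0.51 and Ercc6 stood 0.22 below. A difference of Ercc6 in particular and a difference of chromosome 14 as a whole cannot be told apart from these data, and once the chromosome median was subtracted the direction was reversed in all 3 conditions. None of the other 8 genes is on chromosome 14.

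**Figure D3:**
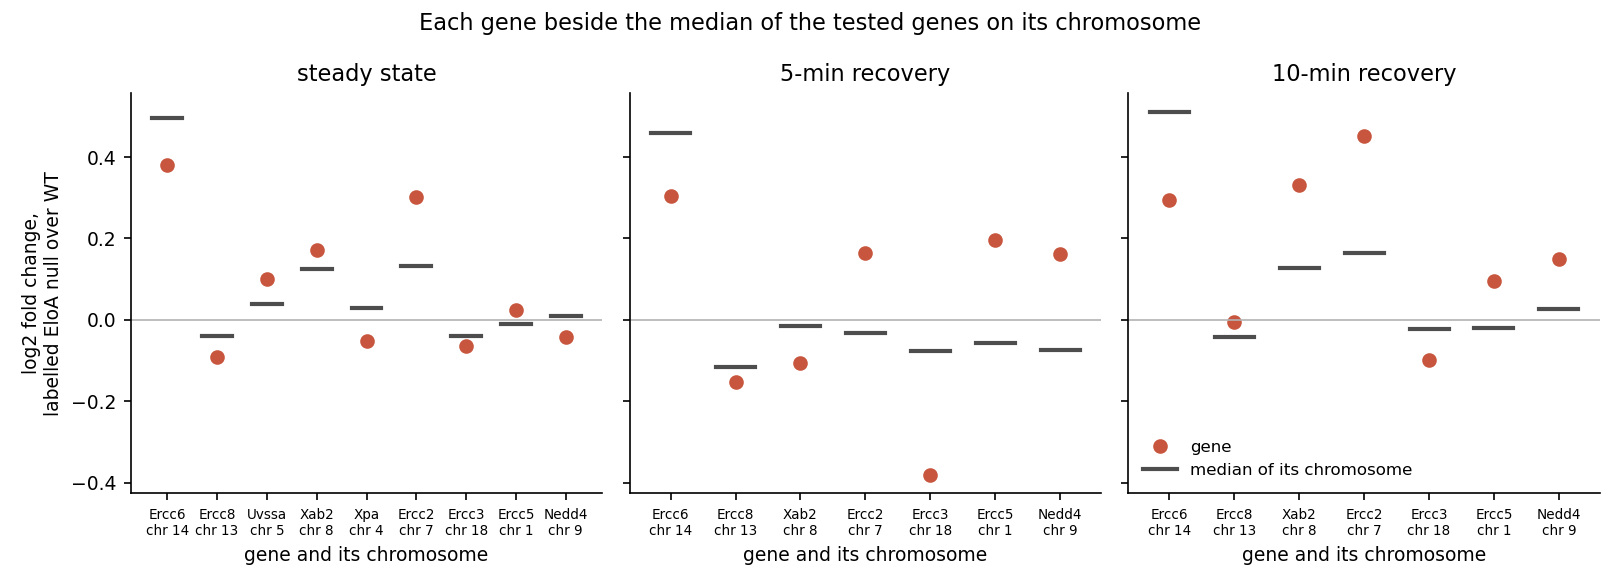
Log2 fold change of each tested gene (red point, libraries labelled EloA null over WT) and the median of the tested genes on its chromosome (dark bar) in steady state (left), after 5 min (middle) and after 10 min (right). Ercc6 lies under the bar of chromosome 14 in all 3 panels, and that bar, at 0.46 to 0.51, is the highest of those shown.

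Ercc2 was the other gene whose libraries labelled EloA null lay above WT, at 1.60 and 1.88 RPKM against 1.21 and 1.59 RPKM. The gap to the higher WT library was narrow, and the log2 fold change of 0.30 ± 0.16 had an adjusted p of 0.386 (0.41 and 0.380 without the library in doubt). Leaving out each library in turn moved it between 0.12, without WT replicate 1, and 0.48, without WT replicate 2, it was 0.19 without EloA null replicate 2, and after removal of the GC trend it was 0.076. Ercc2 overlaps Klc3 on the other strand and Mir343, and whether strand was used in the counting is not given, so some of its reads may belong to Klc3. Ercc3, its partner in TFIIH, lay lower by a small margin, at 3.39 and 3.28 RPKM in WT and 3.16 and 3.21 RPKM in the others, with a log2 fold change of -0.06 ± 0.08. Ercc8 was also lower in both, at 2.38 and 2.21 RPKM in WT and 2.12 and 2.17 RPKM, with a log2 fold change of -0.09 ± 0.08. For both, the difference was about the size of its standard error, and without the library in doubt the log2 fold changes were -0.05 for Ercc3 and -0.08 for Ercc8.

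The other 5 genes overlapped between genotypes in steady state. Xab2 had 6.49 and 5.55 RPKM in WT and 7.09 and 6.46 RPKM in the libraries labelled EloA null. Nedd4, the ligase that acts before the Elongin complex, had 10.0 and 10.2 RPKM in WT and 9.58 and 10.0 RPKM in the others, with a log2 fold change of -0.04 ± 0.09. Ercc5 had 1.66 and 1.70 against 1.86 and 1.57 RPKM. Xpa and Uvssa, the least transcribed, had log2 fold changes of -0.05 ± 0.11 and 0.10 ± 0.19. The adjusted p-values of these 5 ran between 0.482 for Xab2 and 0.923 for Ercc5, and without the library in doubt Ercc5 and Xpa each lay under both WT libraries, at 1.57 and 0.803 RPKM. Without that library the log2 fold changes were 0.11 for Xab2, 0.11 for Uvssa, -0.0083 for Nedd4, -0.09 for Ercc5 and -0.09 for Xpa.

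**Figure D4:**
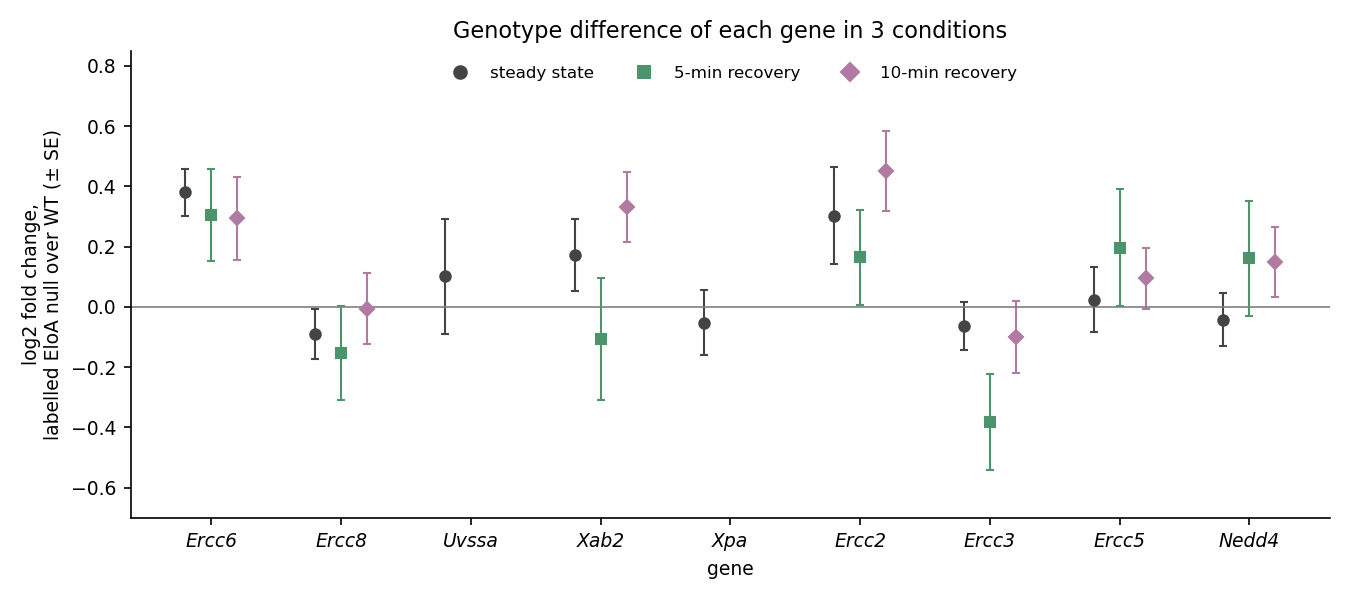
Log2 fold change of nascent RNA, libraries labelled EloA null over WT, for each gene in steady state (circles), at 5 min (squares) and at 10 min (diamonds), with the standard error from limma as bars. Uvssa and Xpa have no value in recovery because their mean was under 0.5 RPKM; Ercc6 lies above 0 in all 3 conditions and Ercc3 lies lowest at 5 min.

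At 5 min of recovery 7 of the 9 genes passed the limit of 0.5 RPKM, and Uvssa and Xpa did not. Of the 7, 0 passed the adjusted p in limma, as did 0% of 8985 genes, with 846 of all genes and 0 of the 7 at an unadjusted p under 0.05. Only Ercc6 had both libraries labelled EloA null above both WT libraries, 1 of 7 against 15.4% of all genes, and Ercc8 and Ercc3 lay below, 2 of 7 against 25.0%. A 1.5-fold difference was reached by 0 of 7 genes and by 12.1% of all genes. The median log2 fold change of the 7 genes was 0.16, beside -0.06 for all genes tested, a difference that was not tested. Ercc3 had 2.61 and 2.26 RPKM in WT and 1.94 and 1.75 RPKM in the libraries labelled EloA null. This was the largest difference of the 7 genes at 5 min, with a log2 fold change of -0.38 ± 0.16 and an adjusted p of 0.542. Ercc6 had 1.33 and 1.15 against 1.62 and 1.499 RPKM, a log2 fold change of 0.31 ± 0.15. Ercc8 had 1.24 and 1.10 RPKM in WT against 0.985 and 1.10 RPKM, so close that the higher of the latter nearly met the lower WT library. Of the 2 genes without a fit, Uvssa overlapped (0.254 and 0.207 against 0.217 and 0.217 RPKM), and Xpa, given above, was lower in both libraries labelled EloA null. For Xpa the two-sided exact permutation test gave p = 0.333, which is the smallest p that 2 against 2 libraries allow.

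At 10 min the same 7 genes were tested. Again 0 of them, and 0% of 10241 genes, passed the adjusted p in limma, while 2098 of all genes and 2 of the 7 (Ercc2 and Xab2) had an unadjusted p under 0.05. In 5 of the 7 genes (Ercc6, Xab2, Ercc2, Ercc5 and Nedd4) both libraries labelled EloA null lay above both WT libraries, against 33.5% of all genes, and in 0 of 7 below, against 21.8%. Past 1.5-fold were 0 of 7 genes and 12.4% of all genes. The median log2 fold change of the 7 genes was 0.15, beside 0.06 for all genes tested, and this too was not tested. Ercc2 had 2.73 and 2.67 RPKM in WT and 4.13 and 3.36 RPKM in the libraries labelled EloA null, which is a log2 fold change of 0.45 ± 0.13 with an adjusted p of 0.193. Xab2 had 15.7 and 14.4 against 20.4 and 17.5 RPKM, a log2 fold change of 0.33 ± 0.12 with an adjusted p of 0.227. After removal of the GC trend both were smaller, at 0.17 for Ercc2 and 0.17 for Xab2, and leaving out 1 library gave 0.30 to 0.60 for Ercc2 and 0.22 to 0.44 for Xab2. The WT libraries of Ercc2 lay close together, and those labelled EloA null were farther apart.

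Ercc6 had 1.08 and 0.898 RPKM in WT and 1.26 and 1.20 RPKM at 10 min, with an adjusted p of 0.305. For Ercc5 (2.80 and 2.77 against 2.85 and 3.12 RPKM) and Nedd4 (4.17 and 4.89 against 5.09 and 4.95 RPKM) the gap between groups was small. Ercc8 overlapped, at 4.08 and 3.47 against 3.69 and 3.81 RPKM, as did Ercc3, at 2.07 and 1.76 against 1.76 and 1.80 RPKM. Among the genes without a fit, Uvssa overlapped and Xpa was lower in both libraries labelled EloA null, at 0.254 and 0.231 RPKM against 0.295 and 0.270 RPKM, again with an exact permutation p of 0.333. Medians of chromosomes 7 and 8, which hold Ercc2 and Xab2, were 0.16 and 0.13 on the log2 scale at 10 min, below the values of both genes.

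Whether the genotype difference itself changed with recovery was tested in 1 model of all 12 libraries, over 11975 genes. For the change from steady state to 5 min, 0 of the 9 genes and 0.100% of all genes passed the adjusted p in limma. For steady state to 10 min it was 0 of 9 and 0.00835%, and between 5 and 10 min 0 of 9 and 0.0919%. Of the 11975 genes, 780, 196 and 682 had an unadjusted p under 0.05 in these 3 limma contrasts. None of the 9 did. The closest were Xab2, whose log2 difference between genotypes was 0.44 ± 0.20 higher at 10 than at 5 min (adjusted p = 0.923), and Ercc3, with a difference lower by 0.32 ± 0.15 at 5 min than in steady state (log2 scale, adjusted p = 0.797). The low Ercc3 value at 5 min is thus not shown to be particular to that time. With replicate number added to the model as a block, Xab2 had an unadjusted limma p of 0.0128 between 5 and 10 min. Its adjusted p was 0.480, and 1019 of all genes had an unadjusted p under 0.05 in that contrast.

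The rest of the pathway was examined in the same way. Of 49 further genes in 5 lists (other transcription-coupled repair factors, recognition of lesions in the whole genome, the rest of TFIIH, incision and gap filling, and ubiquitylation of the polymerase), 48 were tested in steady state, 45 at 5 min and 49 at 10 min, and 0 passed the adjusted p in limma in any condition. Of all genes tested, 2083 of 11347, 846 of 8985 and 2098 of 10241 had an unadjusted p under 0.05 in limma. Of the listed genes 5 of 48, 2 of 45 and 6 of 49 did. Both libraries labelled EloA null lay above WT for 14, 2 and 15 of them and below for 12, 14 and 12, where 32.0%, 15.4% and 33.5% of all genes lay above and 21.4%, 25.0% and 21.8% below. The median log2 fold change was 0.01, -0.09 and -0.00085, beside 0.03, -0.06 and 0.06 for all genes tested. Without the library in doubt, 17 of 48 lay above both WT libraries in steady state and 22 below, against 43.4% and 36.5% of all genes. None of the 49 is on chromosome 14, and only Eloa passed 1.5-fold upwards in each condition, with none downwards.

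By list, the largest steady-state differences were small, and the counts above and below WT are to be read against the 32.0% and 21.4% of all genes given above. Among 10 other factors of transcription-coupled repair, Hmgn1, a nucleosome-binding protein, had 6.47 ± 0.269 RPKM in WT and 7.67 ± 0.384 RPKM in the libraries labelled EloA null, and Elof1, an elongation factor, 1.28 ± 0.0979 and 1.47 ± 0.137 RPKM. In this list 3 genes lay above and 1 below WT in both libraries. Of the genes that recognise lesions outside transcription 4 were tested, and Rad23b, a partner of XPC, had 9.37 ± 0.425 RPKM in WT and 8.32 ± 0.219 RPKM in the others.

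In the rest of TFIIH, 2 of 8 genes lay above WT and 4 below, with a median log2 fold change of -0.12. Without the library in doubt 2 lay above and 6 below, against 43.4% and 36.5% of all genes. Gtf2h2, a core subunit, had 2.67 ± 0.253 RPKM in WT and 2.14 ± 0.252 RPKM in the others, and Ccnh, the cyclin of the TFIIH kinase, 2.44 ± 0.0897 and 2.02 ± 0.192 RPKM. In incision and gap filling, 5 of 17 lay above and 3 below in steady state, led by Xrcc1, a ligation scaffold (4.98 ± 0.584 and 6.29 ± 0.0605 RPKM), and Rpa2, a subunit of the protein that coats single-stranded DNA (3.19 ± 0.0912 and 4.01 ± 0.468 RPKM). At 5 min 0 of 16 lay above and 8 below, with a median of -0.17. Of all genes at 5 min, 15.4% lay above and 25.0% below, with a median of -0.06. The ubiquitylation list had a lower median at 5 min, -0.19, with 2 of 9 above and 3 below. In the ubiquitylation list, 3 of 9 lay above and 3 below in steady state. Apart from Eloa the largest value was that of Elob, which binds Elongin A in the same complex, with 6.23 ± 0.126 and 7.38 ± 0.346 RPKM. Without the library in doubt, 3 of the 9 lay above and 5 below, and in incision and gap filling 6 of 17 above and 7 below.

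Genes with the profile most like each of the 9 over the 12 libraries were found among 7342 genes above 0.5 RPKM in every group, by Pearson's r of log2(RPKM + 0.1). All libraries share their table's scaling, and most of the spread is between conditions, so r is high for many pairs and is given as a description. For Ercc8 they were Poc5, Hspa14 and Gna13 (r = 0.997, 0.997 and 0.996), for Ercc5 Tiparp, Naf1 and Slc33a1 (0.997, 0.995 and 0.992) and for Ercc2 Alkbh6, Med25 and Psmg3 (0.991, 0.983 and 0.983). These follow genes that were higher at 10 than at 5 min. For Xpa they were Plpp3, Tacc1 and Rsf1os1 (0.998, 0.996 and 0.994) and for Uvssa Nubp1, Zfp335 and Ppt1 (0.984, 0.984 and 0.983). The 3 nearest Xpa spanned 46.8 to 101.9 kb, well over the 21.1 kb of Xpa itself.

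For Ercc6 the nearest were Dab2ip, Ints6 and Zfp532 (0.983, 0.982 and 0.981), for Ercc3 4933427D14Rik, Cep152 and Foxo3 (0.983, 0.982 and 0.982) and for Nedd4 Blm, Sash1 and Jmjd1c (0.986, 0.973 and 0.971). For Xab2 they were Chn1os3, Gm5767 and Mlana (0.991, 0.984 and 0.984). Uvssa and Xpa, under 0.5 RPKM in recovery, were not among the genes searched, and none of the other 7 was among the 3 nearest of another.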

How the data were processed

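The authors aligned paired-end Bru-seq reads to mm10 (and dm3 for spike-in RNA) with Bowtie2 2.3.4.3, kept uniquely aligned reads with SAMtools, counted reads in RefSeq genes with featureCounts 1.6.1 and deposited RPKM values normalized with edgeR, 1 table per condition, with single replicates. Use of strand in counting, and scaling between tables, are not given in the sources used here. Although whole genes were to be counted, the deposited values of these 9 genes gave whole reads with lengths near their introns. Input RNA is 100 µg in the methods and 25 to 50 µg in the labels. Samples were grouped by title. The paper calls the duplicates independent experiments, and the labels do not say what separates them, so p-values measure the spread between libraries. The 16 CUT&RUN-seq and ChIP-seq samples were not analysed here.

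limma 3.58.1 (R 4.3.3, intensity trend, two-sided) was run on log2(RPKM + 0.1) within each table over genes with a mean above 0.5 RPKM in either genotype, with Benjamini-Hochberg adjustment over all of them. Fold changes on this scale understate those of low genes. The procedure was tested on simulated data. Gene lengths come from RefSeq on GRCm38. The 9 genes, the lists and the tests were chosen with earlier results of these data known. Named from each list were the 2 genes with the largest log2 fold change in steady state, and for each of the 9 the 3 nearest profiles; 1 listed gene is not reported here. Chromosome 14 and the neighbours of Ercc6 were described with these results known. Alternatives were another pseudocount, no filter, median centring, quantile normalization, leaving out each library, a replicate block, GC correction, subtraction of the chromosome median and 1 fit of all libraries. One library can decide a call at 2 per group.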

Additional observations from a re-analysis of the deposited data

How the results depend on the processing

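None of the 9 genes passed an adjusted p of 0.05 in any alternative fit that kept 2 libraries per group. The smallest adjusted p from limma was 0.0818, for Ercc6 in steady state with the GC trend removed. Subtraction of the chromosome median had no test of its own. Of 299 alternative log2 fold changes of these genes, 278 kept their direction and 21 were reversed. Part of that agreement was fixed in advance. Dropping the filter, adding the replicate block or fitting all libraries together left these values unchanged, so no reversal was possible there. GC correction gave the same values with and without the block, and both are counted. Subtracting the chromosome median reversed Ercc6 (-0.12 in steady state, -0.15 at 5 min, -0.22 at 10 min) and Ercc8 at 10 min (0.036). Removing the GC trend, with or without the replicate block, reversed Ercc8 in steady state (0.051) and at 10 min (0.15) and Nedd4 in steady state (0.065). Median centring reversed Ercc5 in steady state (-0.036) and at 10 min (-0.0024), and quantile normalization Ercc5 (-0.045) and Uvssa (-0.061) in steady state. Leaving out 1 library gave -0.12 to 0.11 for Ercc8 at 10 min, -0.10 to 0.30 for Uvssa, -0.12 to 0.013 for Xpa and -0.089 to 0.14 for Ercc5 in steady state, -0.26 to 0.047 for Xab2 at 5 min and -0.21 to 0.011 for Ercc3 at 10 min. The causes were not tested.

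Counts over all genes moved more. The main fits had 0 genes past the adjusted p in each condition. A fit of all 12 libraries gave 131 in steady state, 496 at 5 min and 366 at 10 min. GC correction gave 21 at 5 min and 55 at 10 min, but 0 at both times with the replicate block added. At 10 min a pseudocount of 1 gave 5, median centring 12 and quantile normalization 6. Leaving out 1 library gave 0 to 0 in steady state, 0 to 60 at 5 min and 0 to 33 at 10 min. The tables hold only 2 numbered pairs each, and deviations of same-numbered libraries correlated at 0.101, 0.119 and 0.103, which at 2 pairs does not settle whether the numbers mark shared experiments; the replicate block gave 128 genes at 5 min. For the change in genotype difference from steady state to 5 min, 12 genes became 3 with a pseudocount of 1, 56 with no filter and 2 with the replicate block, and to 10 min 1 gene became 4 and 27 with the first 2 of these. Dividing the recovery ratios by the median of genes under 10 kb put 2 genes in WT and 3 in the libraries labelled EloA null above 1 at 5 min, in place of 1. Xpa and Uvssa are limited by depth, with 33 to 47 reads for Xpa at 5 min.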
